A study of Homo sapiens with 6 samples.

Results

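The genes of antigen presentation by MHC class I and class II were described in U937, a human monocytic line long kept in culture. The set was named by gene symbol: 35 genes, of which 32 had counts among the 18798 genes of the deposited table and 28 had enough counts to be among the 14797 genes tested. By role they are 5 class I chains, 8 genes of peptide transport, trimming and loading, 6 immunoproteasome and proteasome activator genes, 11 class II genes and their partners, and 5 transcriptional regulators. HLA-DMB, HLA-DQB1 and HLA-DOA were not analysed here. HLA-DRA, HLA-DPA1, HLA-DPB1 and IFI30 had counts too low to be tested.

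RNA was sequenced from 3 ΔNSPs libraries and 3 Control libraries. The ΔNSPs libraries came from independent clones depleted simultaneously of CTSG, ELANE and PRTN3, the genes of the neutrophil serine proteases cathepsin G, neutrophil elastase and proteinase 3. The Control libraries came from separate lines transduced with control plasmids, and both groups were grown under geneticin selection. Each library is therefore 1 clone or line, and differences between clones that have nothing to do with the depletion are part of the spread. All 3 targets were lower in every ΔNSPs library than in any Control library: CTSG averaged 97.1 ± 46.7 CPM in ΔNSPs and 2374 ± 437 CPM in Control, where CPM is the count scaled to a common library total and errors are SD over 3 libraries. Library totals ran from 11476619 to 13782854 counts, so that 3 counts correspond to 0.214 to 0.260 CPM. Among 9 monocytic markers CD33 and SPI1 were present in every library, at 59.3 to 76.3 and 115 to 153 CPM, while CD14 stood at 0.337 CPM at most and CD68 at 1.14 CPM at most. Over expressed genes, the deviations of ΔNSPs clone 1 from its group mean correlated with those of Control lines 2 and 3 (0.368 and 0.371). Those of clones 2 and 3 correlated with Control line 1 (0.287 and 0.292), while clone 1 and Control line 1 stood at -0.504. Deviations cancel out within a group, so these values are tied to one another and are not separate evidence for sets of libraries. These values are across genes, which are not independent replicates.

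Class I molecules pair a heavy chain with beta-2-microglobulin and display peptides that the proteasome cuts in the cytosol, TAP carries into the endoplasmic reticulum and tapasin helps to load. Class II molecules are assembled with the invariant chain CD74, and exchange its remnant for peptides in endosomes with the help of HLA-DM. The transactivator CIITA acts on class II promoters and NLRC5 on class I promoters, both through the RFX proteins bound at the X box, beside NF-Y at the Y box. Interferon gamma induces most of these genes, and resting U937 is known for low class II expression.

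In the main test, edgeR's quasi-likelihood test with Benjamini-Hochberg adjustment over all genes, 0 of the 28 tested members passed an adjusted p of 0.05, against 0.0203% of all genes (3 of 14797). At an unadjusted p under 0.05, 5 members were lower in ΔNSPs and 1 was higher, beside 8.6% of all genes lower and 9.23% higher. The 5 lower members were the heavy chains HLA-B, HLA-C and HLA-E, the peptide trimming enzyme ERAP1 and the promoter-binding protein RFX5, and the higher one was PSME3. Over all 28 the median log2 fold change was -0.097, with 12 positive and 16 negative, beside 0.0023 over all genes. For the 6 named genes the groups did not overlap, and for the other 22 tested members they did. Of all tested genes, 11.7% had all clones below all Control lines and 12.2% had all clones above them. In DESeq2, HLA-B passed as lower and 0 members passed as higher. Of all 18774 genes that DESeq2 gave a p, 1.43% passed as lower and 1.32% as higher. Among the 14797 genes tested in edgeR, DESeq2 called 266 as lower and 247 as higher. Without ΔNSPs clone 1, edgeR called 928 genes, or 6.17% of those tested, and 0 of them were members.

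**Figure D1:**
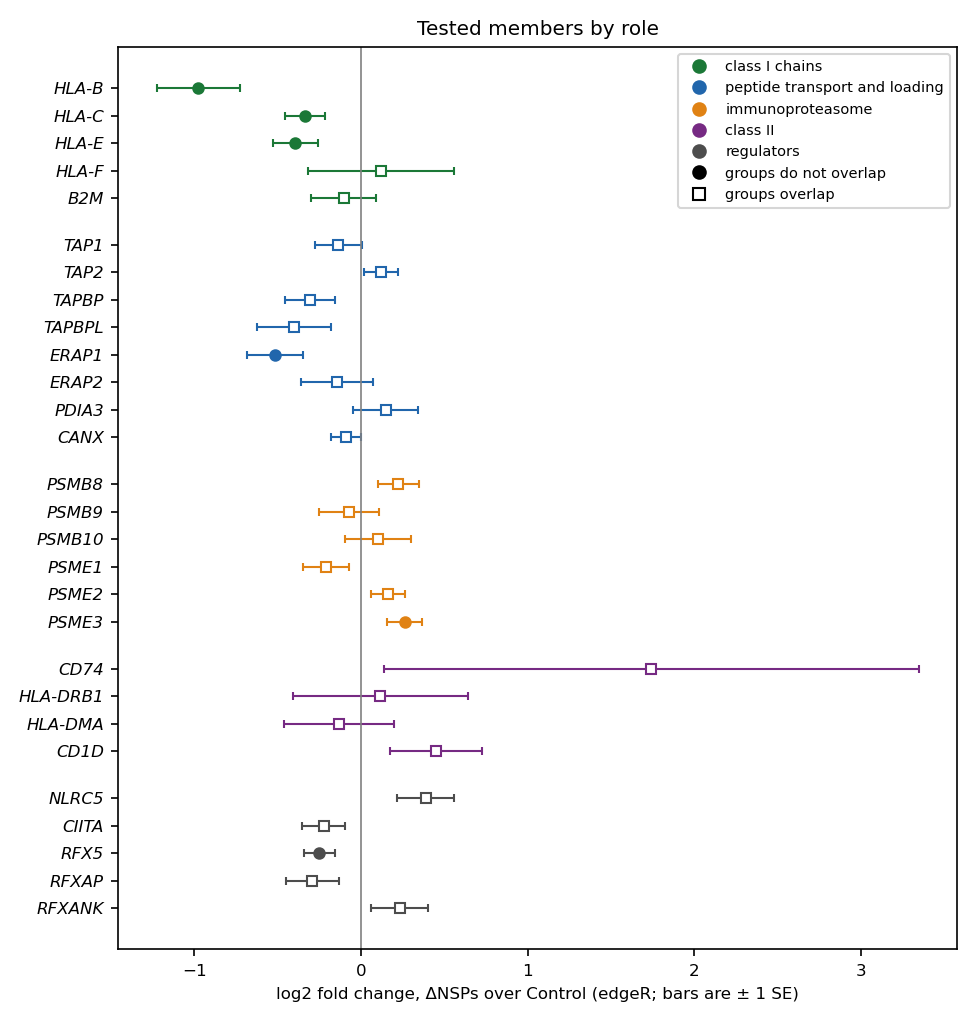
Log2 fold changes (x axis, ΔNSPs over Control, edgeR; bars are 1 SE) of the 28 tested members, grouped and coloured by role, with filled circles where the groups did not overlap and open squares where they did. HLA-B lies furthest to the left at -0.98, and the longest bar belongs to CD74.

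Promoters are shown for HLA-B and HLA-C because all clones were below all Control lines for these chains, although neither passed in edgeR, and for B2M because it encodes their partner. The sequences are the 200 bases before the annotated start, from RefSeq (GRCh38.p14), in the direction of transcription: chr6:31357180-31357379 on the minus strand for HLA-B, chr6:31272093-31272292 on the minus strand for HLA-C and chr15:44711317-44711516 on the plus strand for B2M. Capitals mark matches, on either strand, to CCAAT (the NF-Y motif of the Y box), TGACG (the core of the X2 box), GNNACNNAT (the core of the X1 box), GAAANNGAA (the core of the interferon-stimulated response element) and GGGANTNCC (a core of NF-kB sites).
HLA-B: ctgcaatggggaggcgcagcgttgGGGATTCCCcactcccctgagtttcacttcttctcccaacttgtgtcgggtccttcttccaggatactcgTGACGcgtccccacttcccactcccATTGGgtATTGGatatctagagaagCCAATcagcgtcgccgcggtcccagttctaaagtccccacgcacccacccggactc
HLA-C: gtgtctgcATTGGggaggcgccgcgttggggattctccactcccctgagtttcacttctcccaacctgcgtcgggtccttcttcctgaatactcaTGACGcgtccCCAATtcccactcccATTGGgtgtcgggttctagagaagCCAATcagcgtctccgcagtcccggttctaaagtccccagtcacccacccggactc
B2M: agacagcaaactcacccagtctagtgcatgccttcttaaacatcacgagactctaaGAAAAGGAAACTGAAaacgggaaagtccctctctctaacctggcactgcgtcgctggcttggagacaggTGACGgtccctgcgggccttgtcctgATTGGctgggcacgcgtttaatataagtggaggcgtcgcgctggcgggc
All 3 windows hold TGACG and CCAAT, which occur in 18.4% and 28% of the 35116 promoter windows of the same length. The matches in HLA-B and in HLA-C do not overlap one another, whereas the pair of GAAANNGAA matches in B2M do. HLA-B also matched GGGANTNCC, found in 3.08% of windows, and B2M matched GAAANNGAA, found in 5.44%. These matches are descriptions of sequence and say nothing of which factors were bound.

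HLA-B (ENSG00000234745, chromosome 6, 31269491 to 31357188, GRCh38) showed the largest difference among the class I chains. It was at 167, 209 and 170 CPM in ΔNSPs clones 1 to 3, against 221, 390 and 464 CPM in Control lines 1 to 3. Every clone lay below every Control line, but Control line 1 stood close to clone 2 and well below the other Control lines. The ΔNSPs mean was 50.8% of the Control mean, with a log2 fold change of -0.98 (SE 0.25; DESeq2 adjusted p = 0.00517; adjusted p = 0.171, edgeR). Without Control line 1 the log2 fold change was -1.23 and HLA-B passed in edgeR (adjusted p = 0.0487), where 0.125% of all genes passed as lower. With any other library left out HLA-B did not pass, at edgeR adjusted p of 0.0932 to 0.532. In limma voom with sample quality weights its adjusted p was 0.0886.

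HLA-C (ENSG00000204525, chromosome 6, 31268749 to 31272130) was at 183, 225 and 204 CPM in the ΔNSPs clones, against 231, 262 and 280 CPM in the Control lines. HLA-E, a nonclassical heavy chain that is a ligand of NKG2A on natural killer cells, was at 123, 167 and 152 CPM in ΔNSPs, against 174, 204 and 202 CPM in Control. In both genes the groups were separated by a narrow gap between clone 2 and Control line 1. Their log2 fold changes were -0.34 for HLA-C (SE 0.12; adjusted p = 0.220, edgeR) and -0.39 for HLA-E (SE 0.14; adjusted p = 0.212, edgeR). HLA-F was low in every library, at 1.36 to 2.53 CPM in ΔNSPs and 0.851 to 2.32 CPM in Control.

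B2M, the light chain (ENSG00000166710, chromosome 15, 44711487 to 44718877), had the highest level per length of all members, at 224 CPM per kb of annotated exon. It was at 996, 1715 and 1225 CPM in the ΔNSPs clones, against 1254, 1417 and 1558 CPM in the Control lines, so the groups overlapped. The log2 fold change was -0.10 (SE 0.19; adjusted p = 0.809, edgeR). The CPM ratio of HLA-B to B2M was 0.168, 0.122 and 0.139 in ΔNSPs, against 0.176, 0.275 and 0.298 in Control, without overlap. The ratio of HLA-C to B2M was 0.184, 0.131 and 0.167 in ΔNSPs, against 0.184, 0.185 and 0.18 in Control, and clone 1 lay among the Control lines. The ratio of HLA-B to HLA-C was 0.909, 0.930 and 0.832 in ΔNSPs, against 0.957, 1.48 and 1.66 in Control. By both HLA-B ratios Control line 1 stood next to the clones.

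**Figure D2:**
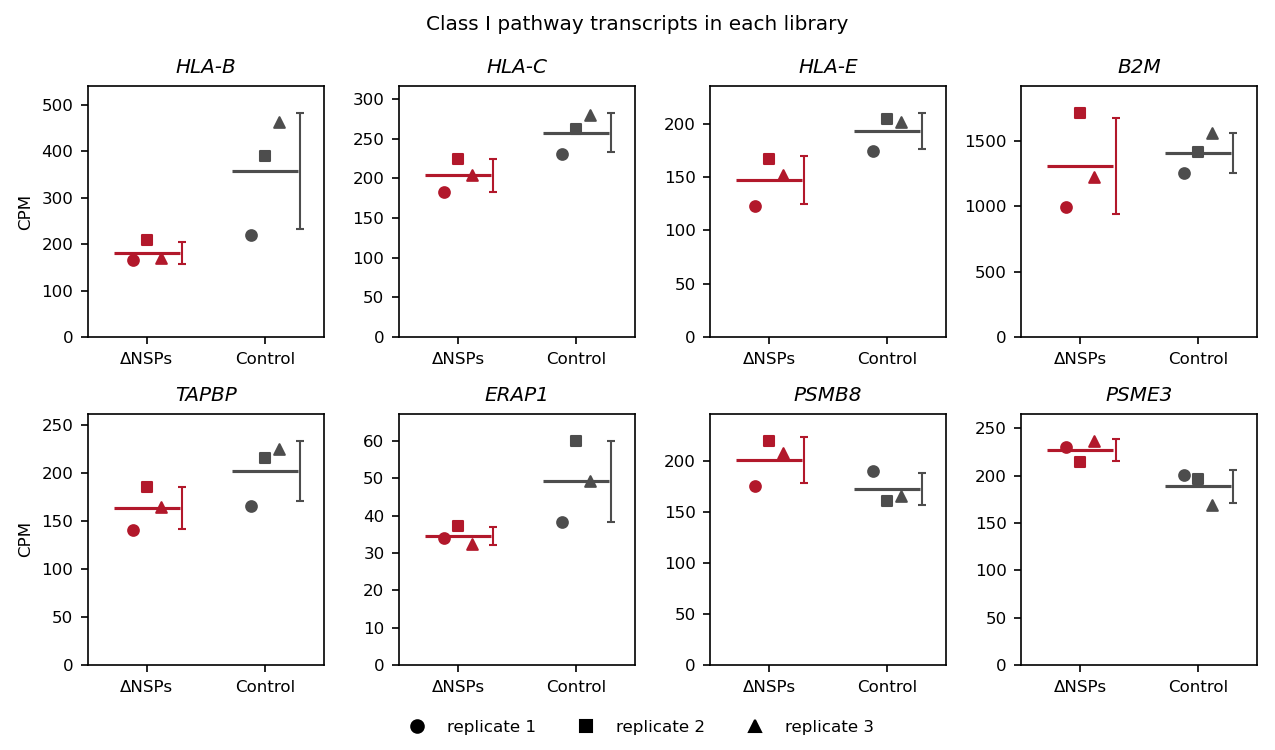
CPM (y axis, from 0) of 8 class I pathway members in each ΔNSPs and Control library; marker shapes give the replicate number, horizontal lines the group means and bars beside them 1 SD (n = 3). Control replicate 1 lies between the clones and the other Control lines for HLA-B (221 CPM), HLA-C (231 CPM) and HLA-E (174 CPM).

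The annotated spans of HLA-B and HLA-C overlap on the same strand and their sequences are close, so the division of reads between them is uncertain. Over the 5 class I chains the median log2 fold change was -0.34, below that of all members.

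Genes near the heavy chains stood close to the Control mean in every library. The 136 expressed genes within 5 Mb of the chromosome 6 members, members and other HLA genes left out, had medians of the log2 ratio to the Control mean that were 0.033, 0.054 and 0.038 in ΔNSPs clones 1 to 3, against 0.019, -0.021 and 0.021 in Control lines 1 to 3. HLA-B stood at -1.03, -0.70 and -1.01 in the clones on the same scale, and at -0.63, 0.19 and 0.44 in the Control lines. On chromosome 15, by contrast, B2M and PDIA3 were high in clone 2 together with their neighbours. The 85 expressed genes around B2M had a median log2 ratio of 0.48 in clone 2, beside -0.08 in clone 1 and -0.09 in clone 3, and B2M itself stood at 0.29 in clone 2. The part of the regional shift in the B2M level was not tested.

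**Figure D3:**
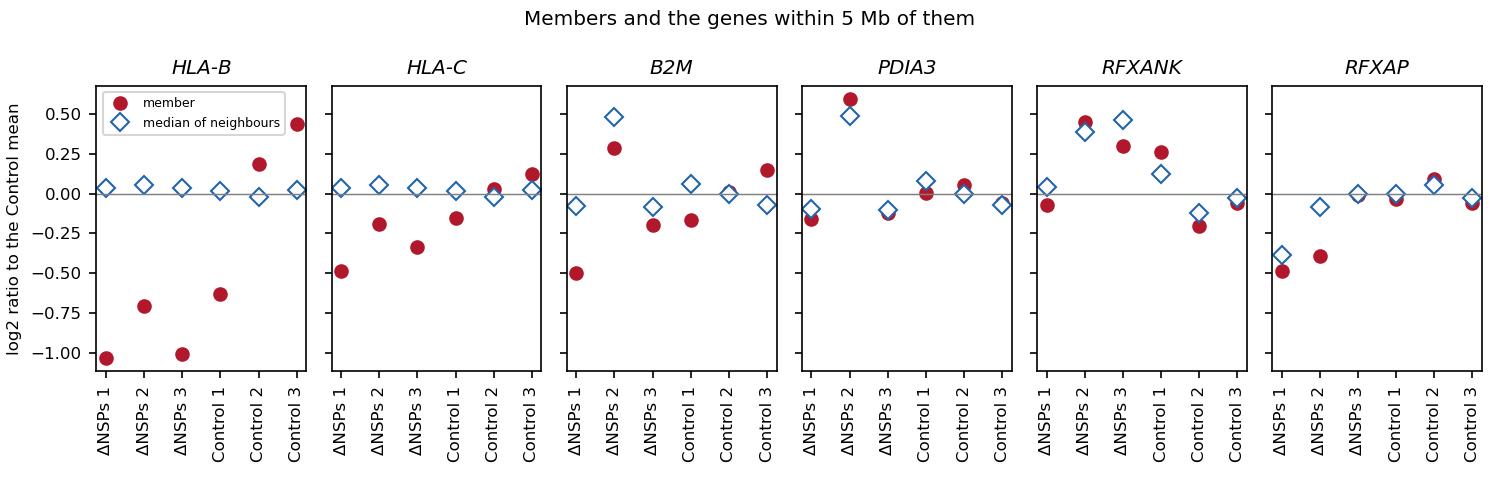
Log2 ratio of each library to the Control mean (y axis) for 6 members (circles) and the median of expressed genes within 5 Mb of each (open diamonds), in the 3 ΔNSPs and 3 Control libraries (x axis). Circles and diamonds separate for HLA-B and HLA-C, and lie together in clone 2 for PDIA3 at 0.59 and 0.49.

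The subunits of the peptide transporter differed little between the groups, while the loading partners TAPBP and TAPBPL had lower means in ΔNSPs. TAP1, a subunit of the transporter, was at 74.9, 59.8 and 55.2 CPM in ΔNSPs against 61.1, 72.4 and 75.0 CPM in Control, and the groups overlapped (log2 fold change -0.14, SE 0.14; adjusted p = 0.646, edgeR). TAP2, the other subunit, was at 47.0 to 49.3 CPM in ΔNSPs and 40.5 to 47.2 CPM in Control. TAPBP encodes tapasin, which bridges TAP and class I. It was at 141, 185 and 164 CPM in ΔNSPs against 166, 215 and 225 CPM in Control, and only Control line 1 fell within the range of the clones (log2 fold change -0.31, SE 0.15; adjusted p = 0.326, edgeR). TAPBPL, a tapasin-related peptide editor, had a log2 fold change of -0.40 (SE 0.22), again with Control line 1, at 10.6 CPM, among the clones.

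ERAP1 trims the amino ends of peptides in the endoplasmic reticulum. It was at 34.1, 37.2 and 32.3 CPM in ΔNSPs, against 38.3, 60.1 and 49.3 CPM in Control. The groups did not overlap, and Control line 1 was again the lowest Control line. The log2 fold change was -0.51 (SE 0.17; adjusted p = 0.200, edgeR). ERAP1 overlaps CAST on the opposite strand in the annotation. ERAP2, its paralogue, averaged 5.71 ± 0.80 CPM in ΔNSPs and 6.31 ± 0.834 CPM in Control. CANX, the chaperone calnexin, averaged 826 ± 44.0 CPM in ΔNSPs and 879 ± 33.1 CPM in Control. PDIA3, the oxidoreductase ERp57 of the loading complex, was at 449, 756 and 459 CPM in ΔNSPs against 502, 519 and 481 CPM in Control, and only clone 2 stood apart. Over the 8 genes the median log2 fold change was -0.14, with 1 unadjusted p under 0.05, in the lower direction, near the 8.6% of all genes. The median was -0.24 without clone 1 and -0.082 without clone 3.

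The immunoproteasome subunits replace the catalytic subunits of the standard proteasome and sit beside the TAP genes on chromosome 6, except PSMB10 on chromosome 16. PSMB8 was at 176, 220 and 208 CPM in ΔNSPs, against 190, 161 and 166 CPM in Control, with clone 1 inside the Control range (log2 fold change 0.22, SE 0.12; adjusted p = 0.362, edgeR). PSMB9, whose gene is adjacent to TAP1, was at 32.2, 36.6 and 25.2 CPM in ΔNSPs against 26.8, 34.0 and 37.9 CPM in Control (log2 fold change -0.07, SE 0.18; adjusted p = 0.862, edgeR). PSMB10 was at 10.3, 16.0 and 13.1 CPM in ΔNSPs against 13.4, 11.4 and 11.9 CPM in Control (log2 fold change 0.10, SE 0.20; adjusted p = 0.819, edgeR). The groups overlapped for all 3 subunits. PSMB9 and the antisense gene PSMB8-AS1 overlap each other, TAP1 and PSMB8 in the annotation. Since the strand setting of the counting is not known, the reads of these genes cannot be fully told apart.

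Each subunit can be set against the standard one it replaces, per kb of annotated exon. The ratio of PSMB8 to PSMB5 was 0.867, 1.37 and 1.36 in ΔNSPs, against 1.08, 0.930 and 0.994 in Control. The ratio of PSMB9 to PSMB6 was 0.105, 0.124 and 0.083 in ΔNSPs, against 0.101, 0.132 and 0.142 in Control. The ratio of PSMB10 to PSMB7 was 0.049, 0.0873 and 0.071 in ΔNSPs, against 0.0767, 0.073 and 0.0725 in Control. PSMB8 was thus near the level of its counterpart in every library, while PSMB9 and PSMB10 were far below theirs, and the groups overlapped for every ratio.

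The PA28 activators bind the ends of the proteasome, PSME1 and PSME2 in the cytosol and PSME3 mainly in the nucleus. PSME3 was at 230, 214 and 237 CPM in ΔNSPs, against 201, 197 and 169 CPM in Control, with no overlap (log2 fold change 0.26, SE 0.11; adjusted p = 0.256, edgeR). PSME1 and PSME2, whose products form a joint ring, did not pass, and their groups overlapped: PSME1 averaged 106 ± 16.0 CPM in ΔNSPs and 123 ± 11.5 CPM in Control, and PSME2 averaged 68.0 ± 4.94 CPM in ΔNSPs and 60.8 ± 3.77 CPM in Control. Over the 6 genes the median log2 fold change was 0.13, and it was 0.03 without clone 2.

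The standard proteasome list held 17 genes, including PSME4, PSMF1 and POMP, which are not subunits of the standard proteasome itself. Of the 17, 16 had positive log2 fold changes, PSME4 being the exception, and the median over the list was 0.22. The groups did not overlap, with ΔNSPs higher, for 10 of the 17, beside 12.2% of all tested genes. Adjusted over all genes, edgeR called 0 of the 17, though 5 were higher at p under 0.05 before adjustment, beside 9.23% of all genes. DESeq2 called PSMA7 as higher, beside 1.32% of all genes. PSMA7, an alpha ring subunit, was at 253, 396 and 347 CPM in ΔNSPs, against 229, 203 and 204 CPM in Control (log2 fold change 0.65, SE 0.16; DESeq2 adjusted p = 0.0157; adjusted p = 0.171, edgeR). PSMA4 was the most abundant by CPM, at 412, 550 and 429 CPM in ΔNSPs against 382, 365 and 328 CPM in Control. PSMB5 was the same in both groups within its spread, at 101 ± 16.0 CPM in ΔNSPs and 101 ± 2.61 CPM in Control.

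**Figure D4:**
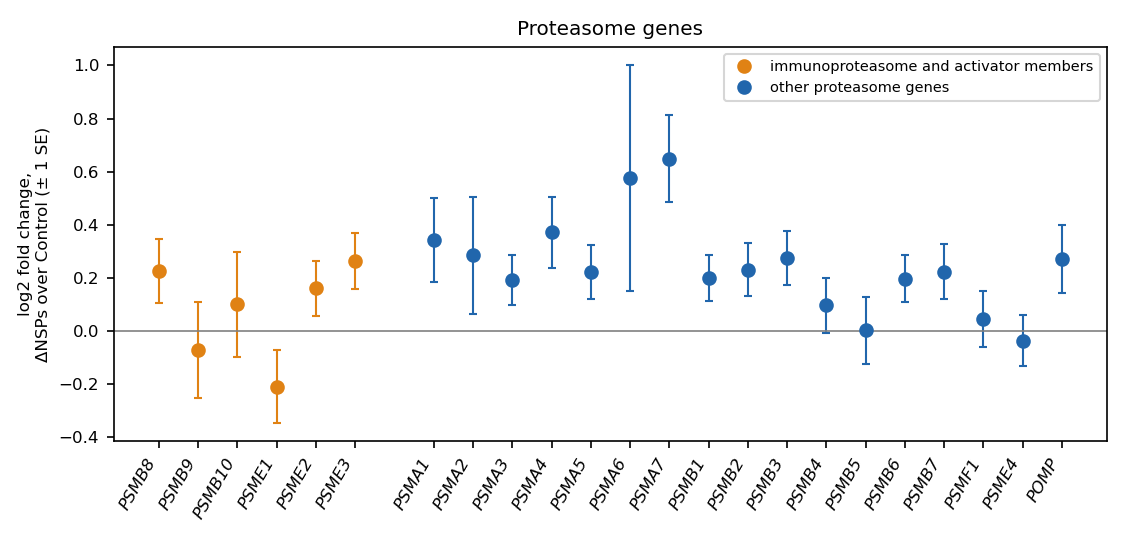
Log2 fold changes (y axis, ΔNSPs over Control, edgeR; bars are 1 SE) of the 6 immunoproteasome and activator members and of 17 other proteasome genes. Of the 17, 16 lie above 0, whereas PSMB9 (-0.07) and PSME1 (-0.21) among the members lie below it.

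On the class II side, the promoters of CD74, HLA-DRB1 and HLA-DMA are shown because these were the members with enough counts to be tested and a class II function. They are the 200 bases before the RefSeq start (GRCh38.p14), all on the minus strand: chr5:150412911-150413110 for CD74, chr6:32589849-32590048 for HLA-DRB1 and chr6:32953098-32953297 for HLA-DMA. Capitals mark the same motifs as above.
CD74: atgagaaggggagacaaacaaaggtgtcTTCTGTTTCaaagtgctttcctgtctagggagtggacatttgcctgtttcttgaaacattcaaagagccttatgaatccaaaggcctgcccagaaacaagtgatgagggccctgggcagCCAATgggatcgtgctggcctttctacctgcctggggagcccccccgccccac
HLA-DRB1: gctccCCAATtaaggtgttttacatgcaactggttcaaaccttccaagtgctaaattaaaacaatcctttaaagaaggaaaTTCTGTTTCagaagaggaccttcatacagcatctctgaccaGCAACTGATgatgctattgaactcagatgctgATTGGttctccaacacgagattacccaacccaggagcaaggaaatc
HLA-DMA: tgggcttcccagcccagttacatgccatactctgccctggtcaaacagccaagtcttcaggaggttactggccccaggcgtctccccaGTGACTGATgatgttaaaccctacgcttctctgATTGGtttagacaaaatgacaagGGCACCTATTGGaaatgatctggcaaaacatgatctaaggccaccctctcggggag
HLA-DRB1 holds the X1 core GNNACNNAT 78 bases before the start, upstream of CCAAT at 46 bases. HLA-DMA holds it at 112 and 56 bases, with CCAAT at 79 and 49 bases, and the match at 56 bases overlaps the nearer CCAAT. Of all windows, 15.7% hold that core. The CD74 window holds CCAAT and GAAANNGAA.

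CD74 was the most variable member, and it varied within both groups. Its counts were 9, 866 and 5 in ΔNSPs clones 1 to 3, against 195, 24 and 20 in Control lines 1 to 3, or 0.642, 65.5 and 0.421 CPM against 16.6, 1.74 and 1.73 CPM. Clone 2 and Control line 1 were high and the other 4 libraries low, so the groups overlapped. IRF8, an interferon-regulated transcription factor of myeloid and B cells, was likewise high in these 2 libraries, at 0.927, 50.1 and 2.86 CPM in ΔNSPs, against 52, 3.12 and 4.68 CPM in Control. For CD74 the highest library stood 156-fold above the lowest. The log2 fold change of 1.74 (SE 1.61; adjusted p = 0.594, edgeR) changed sign without clone 2, to -3.61 (edgeR adjusted p = 0.313). DESeq2 gave no p for CD74. The 36 expressed genes within 5 Mb of CD74 had medians, on the log2 scale relative to Control, between -0.05 and 0.04 in all 6 libraries. In bulk RNA, a larger share of cells with CD74 and more CD74 RNA per cell cannot be told apart.

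HLA-DRB1, the DR beta chain, was at 1.35, 7.49 and 4.13 CPM in ΔNSPs (19, 99 and 49 counts), against 3.49, 3.62 and 4.85 CPM in Control. Clone 2 was the highest library for HLA-DRB1 as for CD74, but Control line 1, the next highest for CD74, was the lowest Control line for HLA-DRB1. The groups overlapped (log2 fold change 0.12, SE 0.52; adjusted p = 0.928, edgeR). HLA-DRB1 has close paralogues, so its reads are uncertain. HLA-DRA, the DR alpha chain, had 11, 3 and 1 counts in ΔNSPs and 1, 3 and 5 in Control, so DR alpha chain transcripts were at 3 counts or fewer in 4 of 6 libraries. HLA-DPA1 had 5 counts at most and HLA-DPB1 5 counts at most, with 0 in clone 2 and Control line 2 for both. IFI30, the lysosomal thiol reductase GILT, had 1 to 3 counts in every library.

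HLA-DMA, a chain of the class II peptide editor, was at 1.92 to 3.2 CPM in ΔNSPs and 1.96 to 3.55 CPM in Control (log2 fold change -0.13, SE 0.33; adjusted p = 0.863, edgeR). HLA-DMA overlaps BRD2 on the opposite strand, a gene with 16713 counts over the 6 libraries. CD1D, which presents lipids to natural killer T cells, was at 4.78, 4.16 and 4.46 CPM in ΔNSPs, against 2.64, 2.75 and 4.42 CPM in Control. Its groups overlapped through Control line 3 (log2 fold change 0.45, SE 0.28; adjusted p = 0.417, edgeR). Of the 11 class II side members, 8 had counts and 4 were tested, with a median log2 fold change of 0.28 that became -0.34 without clone 2.

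CIITA (ENSG00000179583, chromosome 16, 10866222 to 10943021), the class II transactivator, was present in all libraries, whereas HLA-DPA1 and HLA-DPB1 were not. Per kb of annotated exon CIITA averaged 1.87 CPM, against 4.54 for CD74, 3.38 for HLA-DRB1, 1.06 for HLA-DMA and 0.238 for HLA-DRA. The CD74 average came mainly from clone 2 and Control line 1, at 65.5 and 16.6 CPM, beside 0.421 to 1.74 CPM elsewhere. The order of these averages therefore does not hold for each library. CIITA has 20757 bases of annotated exon, by which its level was divided. It was at 41.0, 33.5 and 32.8 CPM in ΔNSPs, against 38.1, 44.0 and 43.2 CPM in Control, and the groups overlapped (log2 fold change -0.22, SE 0.13; adjusted p = 0.387, edgeR). The ratio of CD74 to CIITA in CPM was 0.0157, 1.95 and 0.0129 in ΔNSPs, against 0.435, 0.0395 and 0.0401 in Control, so the variation of CD74 had no counterpart of like size in CIITA. CIITA overlaps DEXI on the opposite strand, and DEXI had 3094 counts over the 6 libraries. NLRC5, the class I transactivator, was at 25.6, 30.9 and 39.2 CPM in ΔNSPs against 26.2, 24.6 and 22.3 CPM in Control. Its log2 fold change was 0.39 (SE 0.17; adjusted p = 0.287, edgeR), opposite in sign to those of HLA-B, HLA-C and HLA-E.

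**Figure D5:**
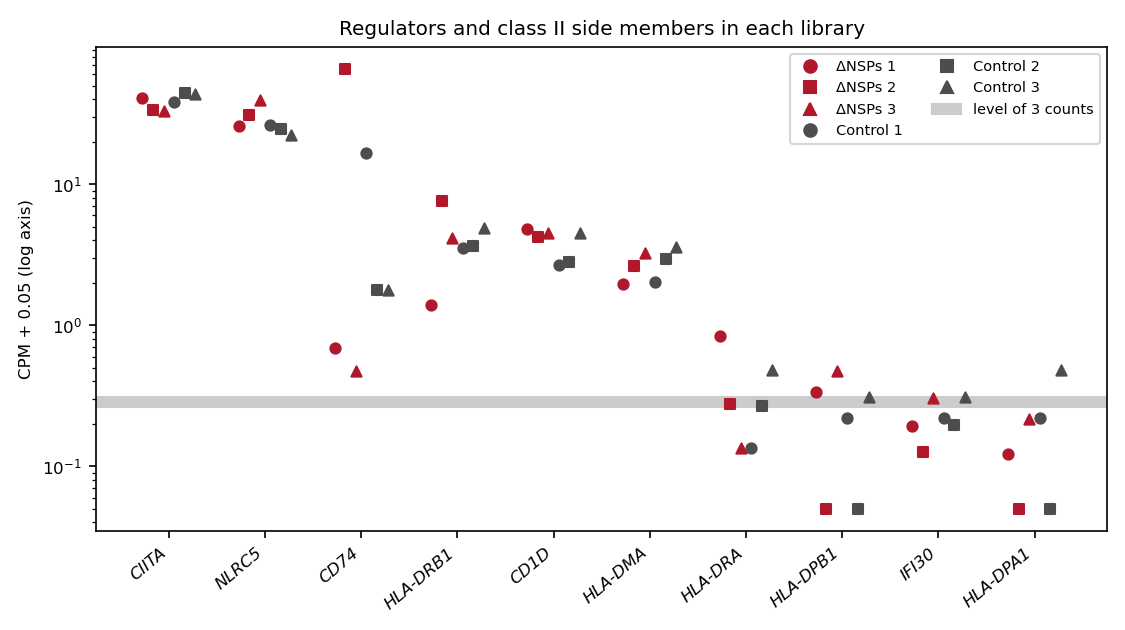
CPM plus 0.05 (y axis, log scale) of CIITA, NLRC5 and 8 class II side members in each ΔNSPs (red) and Control (grey) library; the grey band is the level of 3 counts. CD74 spans from 0.421 to 65.5 CPM over the libraries, while CIITA stays between 32.8 and 44.0 CPM.

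The 3 subunits of the RFX complex, which binds the X box in both classes of promoter, did not pass the test. RFX5 was at 75.2, 80.4 and 79.6 CPM in ΔNSPs, against 94.7, 95.8 and 88.9 CPM in Control. The groups did not overlap, as for 11.7% of all tested genes in this direction, and the spread in each was small (log2 fold change -0.25, SE 0.09; adjusted p = 0.235, edgeR). RFX5 overlaps the antisense gene AL391069.1 in the annotation, which had 1051 counts over the 6 libraries. RFXAP was at 16.6, 17.8 and 23.3 CPM in ΔNSPs against 23.0, 25.1 and 22.5 CPM in Control (log2 fold change -0.29, SE 0.16). In clone 1 the 24 expressed genes around RFXAP on chromosome 13 had a median log2 ratio to the Control mean of -0.39, and RFXAP stood at -0.49. In clone 2 RFXAP stood at -0.39 while those genes had a median of -0.08. RFXANK was at 63.2, 91.0 and 81.8 CPM in ΔNSPs against 79.7, 57.6 and 63.7 CPM in Control (log2 fold change 0.23, SE 0.17). The 107 expressed genes around it on chromosome 19 had median log2 ratios of 0.04, 0.39 and 0.46 in clones 1 to 3, against 0.13, -0.12 and -0.03 in the Control lines. RFXANK was likewise highest in clones 2 and 3 and lowest in Control line 2. The part of these regional shifts was not tested. Over the 5 regulators the median log2 fold change was -0.22.

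Other genes of antigen presentation were taken from 5 lists of 80 genes, of which 67 were tested. The edgeR test called 0 of the 67; before adjustment 11 had p under 0.05 with ΔNSPs higher and 6 with ΔNSPs lower, beside 9.23% and 8.6% of all genes, so the lower calls were near the share of all genes. DESeq2 called 1 higher and 4 lower, beside 1.32% and 1.43% of all genes, and the single higher call is near that share. Their median log2 fold change was 0.07. The lower DESeq2 calls were MR1, FCGRT, CTSB and PDIA6.

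Among 16 class I-like molecules, 8 were tested, with a median log2 fold change of -0.46. MR1 presents microbial metabolites to mucosal-associated invariant T cells. It was at 21.7, 15.4 and 21.4 CPM in ΔNSPs, against 26.9, 35.2 and 32.9 CPM in Control, with no overlap (log2 fold change -0.70, SE 0.17; DESeq2 adjusted p = 0.0232; adjusted p = 0.171, edgeR). FCGRT, the heavy chain of the neonatal Fc receptor, which also pairs with B2M, was at 94.9, 71.0 and 43.3 CPM in ΔNSPs, against 100, 131 and 164 CPM in Control (log2 fold change -0.92, SE 0.28; DESeq2 adjusted p = 0.0244; adjusted p = 0.190, edgeR). The 2 groups nearly met for FCGRT, between clone 1 and Control line 1.

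In the list of class II endosomal processing and traffic, 12 genes were tested, with a median log2 fold change of 0.13. CTSB, the lysosomal protease cathepsin B, was at 218, 149 and 193 CPM in ΔNSPs, against 228, 430 and 439 CPM in Control (log2 fold change -0.97, SE 0.26; DESeq2 adjusted p = 0.00656; adjusted p = 0.176, edgeR). Like HLA-B, it stood near the clones in Control line 1. CTSS, cathepsin S, which degrades the invariant chain, averaged 76.7 ± 10.9 CPM in ΔNSPs and 60.9 ± 4.29 CPM in Control. SPPL2A is the protease that removes the last stub of CD74. It was at 48.9, 118 and 78.6 CPM in ΔNSPs against 52.2, 54.1 and 46.0 CPM in Control. Its level was highest in clone 2, where CD74 was highest and where chromosome 15 genes around B2M were high. SPPL2A and PSMA4 lie on that chromosome too, but outside the window of genes taken around B2M. The part of any regional shift in their levels was not tested. LAMP1 was the most abundant of the list by CPM and averaged 479 ± 65.8 CPM in ΔNSPs and 381 ± 8.20 CPM in Control.

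Peptidases and endoplasmic reticulum chaperones of class I loading had, over 14 tested genes, a median log2 fold change of 0.02. Calreticulin, encoded by CALR, averaged 2095 ± 255 CPM in ΔNSPs and 2109 ± 23.4 CPM in Control. PDIA6, a protein disulphide isomerase, was at 658, 684 and 627 CPM in ΔNSPs against 776, 860 and 887 CPM in Control (log2 fold change -0.36, SE 0.10; DESeq2 adjusted p = 0.0445; adjusted p = 0.178, edgeR). Interferon gamma signalling and promoter-binding factors had a median of -0.03 over 16 tested genes. IFNGR2, a receptor chain, averaged 66.5 ± 10.6 CPM in ΔNSPs and 50.8 ± 2.67 CPM in Control.

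Markers of cells that express class II were also measured. Of 5 B cell markers 4 had counts, and their summed level ran from 26.7 to 67.7 CPM in ΔNSPs and from 46.9 to 85.4 CPM in Control. CD79B was at 42.1, 10.5 and 0 CPM in ΔNSPs, against 22.7, 46.5 and 51.9 CPM in Control. PAX5 was at 8.41, 7.49 and 1.52 CPM in ΔNSPs, against 8.51, 18.8 and 16.0 CPM in Control. CD79A was at 11.5, 18.4 and 22.3 CPM in ΔNSPs, against 12, 8.11 and 12 CPM in Control. These 3 markers thus differed in which libraries were high. In clone 2, the highest library for CD74, CD79A was above all Control lines and CD79B was below them. Of 6 dendritic cell markers 2 had counts, with summed levels of 12.5 to 19.0 CPM in ΔNSPs and 8.40 to 12.4 CPM in Control. The part of these markers in the class II values was not tested.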

How the data were processed

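Raw counts, as whole numbers per Ensembl gene for 6 libraries, are the unit the authors deposited, in a single table. Per the submitters' processing notes the tools were HTSeq 0.11.1, SAMtools 1.5.9, HISAT2 2.0.0 and FastQC, with build GRCh38.p12. Which annotation release and strand setting were used, and whether rows were filtered, is not given in the sources used here. All rows held at least 10 counts in sum. GENCODE 29 gave symbols, positions and exon lengths for 18771 of 18798 genes. Sample titles gave the groups and replicate numbers. No pair of libraries of a group agreed within sampling noise (chi-square per degree of freedom of 6.37 or more).

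Differences were tested with edgeR 4.0.16 under R 4.3.3: TMM factors, the filterByExpr filter, quasi-likelihood fits by group, two-sided, adjusted over all genes tested, and tested on simulated data. Alternatives were DESeq2 1.42.0, limma 3.58.1, other size factors and filters, a replicate block and leaving out each library. A log2 fold change is ΔNSPs over Control. Log2 ratios to the Control mean used a pseudocount of 0.5 CPM, and windows used genes averaging 8 CPM or more. The X1 and interferon motifs were first searched with 1 more letter at the end and then shortened to 9 letters, which matched more windows. Floors of 3 counts cover counting error only. All members are accounted for, with full statistics for those past a threshold and for 10 core genes; of the other lists, those past edgeR's threshold, the most abundant and up to 2 with the lowest p are named. Some genes are not reported here. CTSS, SPPL2A, PSMB5, IRF8 and the named B cell markers were chosen after their values were seen. The members and lists were chosen with earlier results of these data known. The p-values measure the spread between clones and lines.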

Additional observations from a re-analysis of the deposited data

How the results depend on the processing

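The number of genes past the threshold varied widely: 3 in edgeR, 515 in DESeq2, 0 with the replicate block (1779 before adjustment), and 0 to 928 when 1 library was left out. It was 928 without clone 1, 1 without clone 3, 20 without Control line 1, and 0 without Control line 2 or 3 (1408 and 1413 before adjustment). For the members it was 0 in edgeR, 1 in DESeq2 (HLA-B), and 0 to 1 when 1 library was left out, the 1 being HLA-B without Control line 1. The other antigen presentation genes gave 0 in edgeR, 5 in DESeq2 and 0 to 4 when 1 library was left out, the 4 without clone 1. HLA-B was negative in all 13 alternatives, between -1.23 and -0.75. With 1 library left out, the median log2 fold change of the immunoproteasome group ran from 0.027 to 0.23 and that of the class II group from -0.34 to 0.50. The median difference of the chromosome 6 neighbours was 0.018, and 0.061 within 2 Mb.

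Log2 fold changes of 8 members changed sign, none of them past the threshold. With 1 library left out they ran from -0.21 to 0.38 for HLA-F, -0.34 to 0.053 for B2M, -0.14 to 0.27 for PDIA3, -0.20 to 0.063 for PSMB9, -0.067 to 0.24 for PSMB10, -3.61 to 3.67 for CD74, -0.55 to 0.54 for HLA-DRB1 and -0.33 to 0.071 for HLA-DMA. HLA-DRB1 was at -0.016 in limma voom. The cause was not tested beyond the missing library. Same-numbered libraries did not deviate together (correlations of -0.504, -0.199 and -0.202), and no library correlated best with its own number. Deviations cancel out within a group, so these values cannot decide whether the numbers pair the libraries. With the replicate block CD74 was at -0.62 and HLA-DRB1 at -0.13, and 0 members passed. Class II chains near 3 counts are too shallow to compare.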
